A study of Mus musculus with 9 samples.

Results

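The comparison set Experiment 1 against the arm of Experiment 2 without Dox, 6 of the 9 libraries of the series and 13747 of its 18733 cells that passed the filters. All 6 libraries held NIH3T3-CG cells, a line of mouse embryonic fibroblasts, under labels that name 2 experiments. Experiment 1 has 1 library each at 0, 17 and 30 h of SAG, a small molecule that activates the receptor-like protein Smoothened. Experiment 2 without Dox has 1 library each at 0, 19 and 30 h of SAG. The labels do not mention Dox for Experiment 1 and do not say what Dox induces. They do not say whether the libraries of an experiment came from separate cultures, so the p-values below rest on the scatter among 6 libraries and may reflect technical scatter alone. Libraries were paired by time, with 17 h beside 19 h. Barcodes with at least 5000 unique molecular identifiers (UMIs, which count captured RNA molecules) and at most 10% mitochondrial UMIs were kept as cells. This left 933, 571 and 585 cells in Experiment 1 and 2979, 6520 and 2159 in Experiment 2.

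NIH3T3 fibroblasts respond to Hedgehog signalling through the primary cilium. Without ligand the receptor Ptch1 holds Smoothened inactive; when Smoothened is activated, the GLI factors switch on their targets, of which Gli1 and Ptch1 are the standard readouts. Much of the rest of a fibroblast's RNA depends on how the cells were grown: density and serum set the cell cycle and the immediate early genes, sterol supply sets the cholesterol synthesis genes, and interferon or attachment set other groups. The comparison describes which of these groups differed between the experiments.

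The libraries differed before any gene was compared. The kept cells of Experiment 2 at 19 h were shallow, with a median of 8025 UMIs and 59.97% of cells under 10000, against medians of 28335 to 48188 UMIs in the other 5 libraries. At the UMI limit that library was also dense, with 878 barcodes within 500 UMIs above it and 966 within 500 below it, where Experiment 1 had at most 4 in either range. At the mitochondrial limit the 6 libraries had 89 to 832 barcodes at 9% to 10% and 77 to 679 at 10% to 11%. In cells thinned to 10000 UMIs the median number of genes detected was 2813, 2690 and 2693 in Experiment 1 and 2017, 2289 and 2569 in Experiment 2. Genes with symbols beginning Rpl or Rps, nearly all of them ribosomal protein genes, held 26.3%, 29.5% and 29.3% of the UMIs of Experiment 1 and 41.3%, 36.8% and 35.3% of those of Experiment 2. In kept cells of Experiment 2 at 30 h 19.7% had under 1% mitochondrial UMIs, against 0.429% to 1.41% in the other 5 libraries. Any pair of the 6 libraries shared 0 to 56 deposited barcodes. The library of Experiment 2 at 0 h stood farthest from Experiment 1. In a principal component analysis of log2 CPM (UMI counts scaled to a library's size after TMM composition factors) the first component held 77.9% of the variance and separated the experiments. Within an experiment the Pearson correlation of log2 CPM across 12657 genes was 0.966 to 0.990, and between the experiments 0.905 to 0.932, as a description over genes that are not independent.

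**Figure D1:**
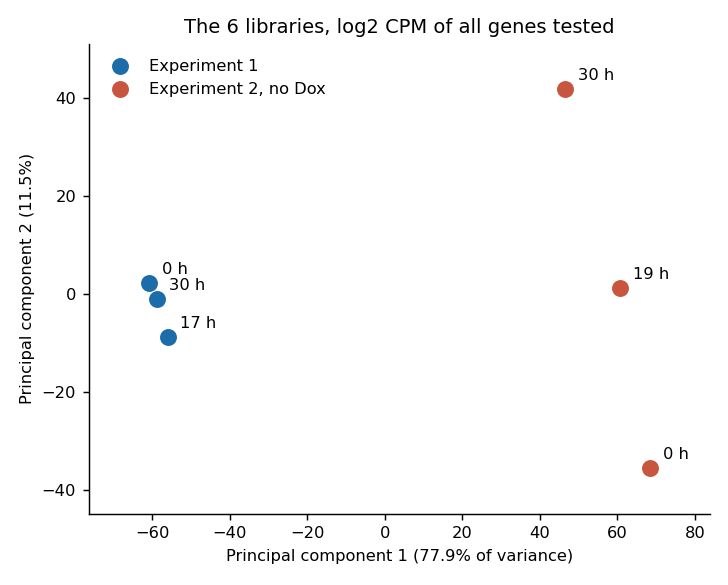
Each point is 1 library, placed by its first (x) and second (y) principal component of log2 CPM over all genes tested, with the share of variance on each axis; colour gives the experiment and the label the hours of SAG. The first component, with 77.9% of the variance, separates Experiment 1 from Experiment 2. On the second (11.5%) the libraries of Experiment 2 spread from 0 h to 30 h over a wider range than those of Experiment 1.

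Markers of fibroblasts were abundant in both experiments. All 11 fibroblast markers were measured, and their summed level was 7090, 6715 and 6240 CPM in Experiment 1 and 9429, 8900 and 9476 CPM in Experiment 2. Of these markers 1 was higher and 3 were lower in Experiment 2 by the test described next (36.4% called, beside 40.6% of all genes). Markers of other cell types ranged widely. The 7 smooth muscle or myofibroblast markers summed to 122 to 165 CPM in Experiment 1 and 356 to 477 CPM in Experiment 2. Osteoblast markers summed to 51.8 to 57.7 CPM against 16.8 to 20.8 CPM, and chondrocyte markers to 18.7 to 38.2 CPM against 6.85 to 25.4 CPM, with 1 gene tested in each of these lists. Skeletal muscle markers reached at most 11.7 CPM, adipocyte markers 5.76 CPM and those of pluripotent stem cells 1.56 CPM. The sums were at most 0.588 CPM for the 8 lymphocyte markers, 0.679 CPM for the 8 endothelial ones and 0.701 CPM for the 8 epithelial ones. The 8 neuronal markers summed to 6.01 to 6.39 CPM in Experiment 1 and 9.64 to 15.6 CPM in Experiment 2. The 9 macrophage markers summed to 18.0 to 19.9 CPM in Experiment 1 and 14.8 to 20.01 CPM in Experiment 2. Cd3e, Cdh1, Krt5, Krt18, Myod1, Myog, Pax7, Rbfox3, Lep, Ibsp and Sox2, each a defining marker of another cell type, had 0 UMIs in all 6 libraries. The part of other cell types in the results was not tested.

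The test (edgeR quasi-likelihood, time as a term, 2 residual degrees of freedom, Benjamini-Hochberg adjusted p under 0.05) asked which genes differed between the experiments across the 3 times. It called 5136 of 12657 genes, which is 40.6%, with 2581 higher in Experiment 2 (20.4%) and 2555 lower (20.2%). Of the called genes 5067 had the same sign at all 3 times, and in 4891 the 3 libraries of an experiment did not overlap those of the other. Over all genes tested, called or not, the experiments did not overlap in 53.6%. The median absolute difference between paired libraries was 0.56, 0.52 and 0.47 on the log2 scale at 0, 17 to 19 and 30 h. Between the times of Experiment 1 it was 0.18 to 0.21, and between those of Experiment 2 0.22 to 0.43. Scaled by library totals instead of TMM factors, 5583 genes were called, 1154 higher and 4429 lower, because the median gene then stood at -0.47 instead of -0.01. The median on library totals is therefore given beside the overall median of a list, to be read against -0.47. The TMM factors were 1.22, 1.15 and 1.15 in Experiment 1 and 0.71, 0.84 and 1.03 in Experiment 2, in the order of times. They differed most between the experiments at 0 h and least at 30 h. Medians by time below use these factors, so their course over time depends on them. A difference of more than 1 on the log2 scale in either direction, tested as such, was called in 959 genes. Without the 17 h library of Experiment 1 2765 genes were called, and without the 19 h library of Experiment 2, 2615.

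The largest differences upward were near presence and absence. They were taken among called genes with a mean of at least 10 CPM in an experiment and the same sign at all 3 times, of which there were 3031. Bc1, a short noncoding RNA (chromosome 7, 144914470 to 144914637, vM21 annotation on GRCm38), had 4, 2 and 0 UMIs in Experiment 1 at 0, 17 and 30 h and 21706, 4389 and 4196 in Experiment 2 at 0, 19 and 30 h. In CPM these were 0.112, 0.08997 and 0 against 359, 49.6 and 38.5, a fitted difference of 11.15 on the log2 scale (SE 0.43, adjusted p = 4.11e-11). Hgs, which sorts ubiquitinated receptors at endosomes, had 0, 0.135 and 0 CPM in Experiment 1 and 16.5, 17.97 and 27.2 CPM in Experiment 2, a fitted difference of 9.05, SE 0.46, adjusted p = 3.86e-10. It had 3 UMIs in all of Experiment 1. The ratio of its pooled UMIs, each divided by the summed TMM library size of the experiment, was 608. The exact 95% counting interval of this ratio is 208 to 2951. These 2 genes were all but missing from Experiment 1 and measured in every library of Experiment 2. Fdx2, a mitochondrial ferredoxin, had 0.0842, 0.1799 and 0.297 against 116, 102 and 66.02 CPM (9.01). Atp6v0c, the proteolipid subunit of the vacuolar proton pump, had 0.842, 1.26 and 1.003 CPM against 326, 416 and 353 CPM, a difference of 8.47, SE 0.31, adjusted p = 3.53e-11. Rnasek, a small membrane protein found with the same pump, had 1.12, 1.12 and 1.597 against 206, 234 and 189 CPM (7.35), and the copine Cpne1 0.0281, 0.08997 and 0.0371 against 19.6, 17.5 and 18.7 CPM (8.56). The other 6 of the 12 largest were Nanp (8.34), Fam89b (7.96), the glycosyltransferase gene Galnt2 (7.35), the mitochondrial ribosomal protein gene Mrpl53 (7.21), the G protein subunit gene Gng10 (7.199) and the small GTPase gene Rab4b (7.11). In each of the 12 no library of Experiment 1 reached the lowest library of Experiment 2. Their choice as the largest called differences nearly ensures this, and 53.6% of all genes did not overlap.

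These extremes went with a difference between the gene lists used for counting. The matrices of Experiment 1 list 31054 features and those of Experiment 2 list 32286, with 30407 in common, 647 only in Experiment 1 and 1879 only in Experiment 2. Features outside the common ones held 0.0711% to 0.0782% of UMIs in Experiment 1 and 0.644% to 0.858% in Experiment 2. A measure of this was made from the vM21 transcripts: the share of 60-base windows in the last 500 bases of a gene's transcripts that also occur in a transcript of another listed feature. For Hgs this share was 87.6% with the list of Experiment 1 and 0% with that of Experiment 2, and the other feature is a second one of the same symbol, listed only in Experiment 1. It was 74.6% against 0% for Fdx2 (with Gm38431), 79.03% against 0% for Rnasek (with Gm21988) and 96.6% against 0% for Gng10 (with Gm20503). Of the 12 genes, 9 had a share more than 10 percentage points higher in the list of Experiment 1, 1 (Bc1, 21.1% in both) had the same share in both lists, and 2 (Atp6v0c and Fam89b) had none in vM21. Among all genes tested, the 183 with such an excess had a median difference of 1.02, with 61.2% called higher. The 10624 with no shared window had a median of -0.04, with 18.7% called higher and 20.9% lower. The part of shared 3' ends in the differences of these genes was not tested beyond this. Fitted on the 10624 genes alone, the same test called 4352, 2168 higher and 2184 lower.

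**Figure D2:**
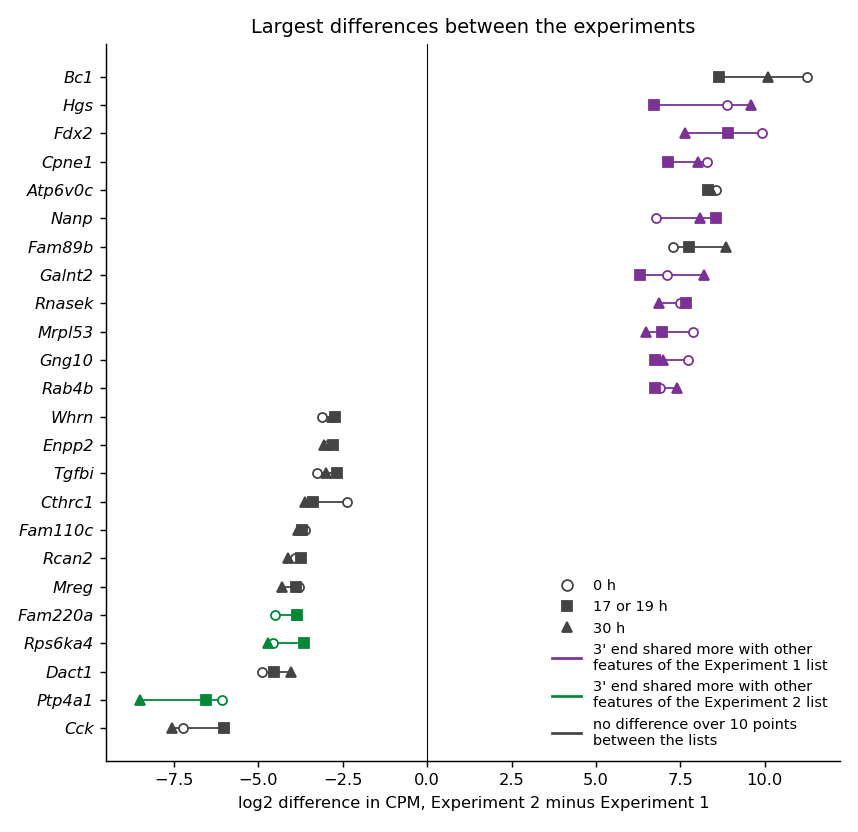
The 24 called genes with the largest differences (y), with the log2 difference in CPM of Experiment 2 minus Experiment 1 at each time (x); marker shape gives the time, and colour says in which experiment's feature list more of the gene's 3' end is shared with other features (by more than 10 percentage points). All 24 keep their sign at the 3 times, and 9 of the 12 highest share more of their 3' end in the list of Experiment 1.

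Beyond those genes, the largest differences upward among genes with no shared window were mostly in protein-coding genes. These were picked for description after their values were seen. Ogn, the matrix proteoglycan osteoglycin, had 5.42, 4.86 and 3.42 CPM in Experiment 1 and 134, 79.8 and 65.7 CPM in Experiment 2 (4.32, SE 0.22, adjusted p = 5.13e-10). Sorbs2, an adaptor of actin filaments, had 0.253, 0.2699 and 0.223 against 17.6, 24.8 and 35.2 CPM (6.63), and the calcium-binding S100a16 1.46, 0.675 and 0.632 against 19.9, 22.3 and 18.2 CPM (4.45). Fads2, a fatty acid desaturase, had 5.48, 4.904 and 6.02 against 51.6, 60.6 and 73.5 CPM (3.49). All 4 were several times higher in each library of Experiment 2 than in any of Experiment 1. They are not the 4 largest: Sycp3 (5.11) and Brinp3 (4.63) stood above Ogn. Lars2 (3.86), which stood above Fads2, was less steady, with 17.4, 18.8 and 20.3 against 611, 428 and 66.6 CPM. Of cells thinned to 10000 UMIs, Ogn was seen in 5.45%, 4.42% and 3.22% (13.1%, 11.6% and 11.97% unthinned) in Experiment 1 and in 48.9%, 40.4% and 39.1% (70.1%, 48.1% and 69.9% unthinned) in Experiment 2.

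By the same rule the largest difference downward was in Cck, the gene of the peptide hormone cholecystokinin (chromosome 9, 121489824 to 121495694). It had 1174, 471 and 738 UMIs in Experiment 1 and 11, 26 and 12 in Experiment 2, or 32.96, 21.2 and 27.4 against 0.182, 0.294 and 0.1100 CPM, a difference of -7.11 on the log2 scale (SE 0.31, adjusted p = 6.57e-11). Cck was seen in 17.4%, 11.8% and 13.8% (33.01%, 24.9% and 32.5% unthinned) of thinned cells of Experiment 1 and in 0.113%, 0.268% and 0.0489% (0.269%, 0.368% and 0.509% unthinned) of those of Experiment 2. Dact1, a regulator of Wnt signalling through Dishevelled, had 27.8, 27.1 and 23.6 against 0.893, 1.14 and 1.39 CPM (-4.51, SE 0.23, adjusted p = 3.86e-10). Rcan2, an inhibitor of calcineurin, had 35.8, 25.6 and 32.02 against 2.32, 1.88 and 1.797 CPM (-3.96). The experiments did not overlap in any of these 3 genes, which were picked for large differences, nor in 53.6% of all genes. Among secreted matrix genes, Cthrc1 had 23.1, 24.8 and 19.3 against 4.38, 2.35 and 1.53 CPM (-3.14) and Tgfbi, which is induced by TGF-beta, 32.8, 18.9 and 26.3 against 3.39, 2.93 and 3.23 CPM (-2.997). Enpp2, the enzyme autotaxin that makes lysophosphatidic acid, had 28.8, 27.2 and 30.4 against 3.74, 3.89 and 3.59 CPM (-2.94). Mreg (-4.06), Fam110c (-3.78) and Whrn (-2.900) completed the 9 of the 12 lowest whose 3' ends were shared with no other listed feature. The other 3 shared more of their 3' end with features of the list of Experiment 2: the phosphatase gene Ptp4a1 (-6.995, 77.3% of windows against 0%), the kinase gene Rps6ka4 (-4.35, 20.2% against 0%) and Fam220a (-4.08, 62.3% against 0%).

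None of the 6 core genes of the Hedgehog pathway described here that could be tested was called between the experiments. Hhip, which encodes a Hedgehog-binding inhibitor, had 0 UMIs in all 6 libraries, and 3 UMIs would be 0.0275 to 0.135 CPM. Gli1 had 0.197, 7.65 and 3.83 CPM in Experiment 1 and 0.0496, 7.88 and 16.05 CPM in Experiment 2, in the order of times, and the experiments crossed. Ptch1 had 4.91, 20.5 and 9.47 against 3.47, 28.9 and 53.3 CPM. Gli1 stood at 0.81, SE 0.400, adjusted p = 0.119 and Ptch1 at 0.84, SE 0.37, adjusted p = 0.0825. The repressor-forming factor Gli3 (0.38, SE 0.197, adjusted p = 0.142), Sufu, which restrains the GLI factors (0.29, SE 0.21, adjusted p = 0.288), Gli2, the main activator (0.31, SE 0.24, adjusted p = 0.313), and Smo (-0.17, SE 0.19, adjusted p = 0.499) completed the 6. The sign of Gli1 rests on the last time: it stood at -0.18 without the 30 h library of Experiment 1 and at -0.19 without that of Experiment 2. Standard errors of 0.19 to 0.40 do not show that these genes were alike. The feature GFP_g1, listed in the matrices of both experiments and not described in the labels, was higher in Experiment 2 at each time. It had 0.842, 9.81 and 2.67 CPM against 3.18, 45.6 and 34.7 CPM, a difference of 2.65, SE 0.28, adjusted p = 2.55e-06.

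Of 30 tested pathway components, 3 were higher and 8 lower in Experiment 2 (36.7% called, beside 40.6% of all genes), with a median of -0.17 (-0.63 on library totals). Leaving out each library in turn gave 2.0 to 5.0 higher and 2.0 to 8.0 lower, with 2 lower without the 17 h or the 19 h library. Evc, a partner of Smoothened at the base of the cilium, had 10.8, 10.1 and 10.8 against 3.67, 4.17 and 7.52 CPM (-1.11, SE 0.22, adjusted p = 7.66e-04), and Dyrk2, a kinase that acts on GLI proteins, 47.00, 41.8 and 41.2 against 16.6, 20.99 and 30.1 CPM (-0.98). Both were nearest between the experiments at 30 h. The arrestin gene Arrb1 (1.55) and Disp1, which releases Hedgehog ligands from the cells that make them (0.89), were higher. Of 18 tested genes reported as Hedgehog targets, 2 were higher and 7 lower, with a median of -0.51 (-0.96 on library totals, where 0 were higher and 10 lower) and -1.02, -0.25 and 0.12 at 0, 17 to 19 and 30 h. Without the 0 h library of Experiment 1 or of Experiment 2 these became 5 higher and 6 lower. Beside Cck, the lower ones included the secreted phosphoprotein Spp1 (675, 447 and 394 against 197, 153 and 98.2 CPM, -1.78), the tetraspanin Cd9 (-1.37) and the forkhead factor Foxf2 (-1.31). Of 32 genes of the primary cilium 6 were higher and 3 lower, so 28.1% were called, a smaller share than the 40.6% of all genes. Their median was 0.02 (-0.44 on library totals, where 4 were higher and 6 lower). The 4 with the smallest p were Ift20 (1.31), Ift43 (1.26) and Ift74 (1.204), of intraflagellar transport, and Rpgrip1l (1.23), of the transition zone.

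Cholesterol synthesis genes were higher in Experiment 2 almost without exception. Of 23 tested, 22 were called higher and 0 lower, where 20.4% of all genes were called higher. The list's median was 1.34 (0.89 on library totals), and 1.16, 1.25 and 1.64 at 0, 17 to 19 and 30 h. The exception, Srebf2, encodes the factor that switches the pathway on and stood at 0.15, SE 0.200, adjusted p = 0.5805. Mvk, mevalonate kinase, had 13.5, 10.2 and 12.1 CPM in Experiment 1 and 47.00, 63.2 and 48.99 CPM in Experiment 2 (2.14, SE 0.205, adjusted p = 7.52e-07). Pmvk, the next enzyme, had 23.2, 18.98 and 17.2 against 80.2, 79.6 and 52.1 CPM (1.82, SE 0.19, adjusted p = 2.42e-06), and the sterol reductase gene Tm7sf2 6.68, 4.45 and 3.34 against 21.5, 20.9 and 20.4 CPM (2.16, SE 0.21, adjusted p = 1.07e-06). In all 3 genes each library of Experiment 2 was above each of Experiment 1, but they were picked by p, and 53.6% of all genes did not overlap. Fdps, farnesyl diphosphate synthase, had 164, 150 and 134 against 779, 966 and 723 CPM (2.45), but 42.2% of its 3' windows were shared with a feature listed only in Experiment 1. The 18 members with no shared window were all called higher. Summed over the list, thinned cells held a mean of 13.6, 11.5 and 9.17 UMIs in Experiment 1 and 19.3, 24.9 and 26.8 in Experiment 2.

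Interferon response genes were also higher, with 16 of 25 called higher and 0 lower (64.0% called, beside 40.6% of all genes). Their median was 0.82 (0.36 on library totals). With TMM factors the medians by time were 0.93, 0.99 and 0.96. They were not taken on library totals, so a difference that holds steady over time is not shown apart from the scaling. Isg15, a ubiquitin-like protein that is attached to other proteins after interferon, had 11.9, 7.11 and 8.098 CPM in Experiment 1 and 145, 92.04 and 56.6 CPM in Experiment 2 (3.37, SE 0.23, adjusted p = 1.63e-08). Ifit1, which binds viral RNA, had 6.91, 4.499 and 5.57 against 26.1, 21.6 and 24.7 CPM (2.11, SE 0.19, adjusted p = 3.58e-07), and Oasl2, an oligoadenylate synthetase-like protein, 1.77, 0.7198 and 1.19 against 5.57, 4.396 and 6.46 CPM (2.18, SE 0.26, adjusted p = 8.51e-06). The experiments did not overlap in these genes, which were picked by p, nor in 53.6% of all genes. Isg15 was highest in Experiment 2 at 0 h. The levels of Experiment 1 rest on few cells. There the 5 cells with most of it held 65.4%, 87.0% and 70.7% of the UMIs of Ifit1, against 18.7%, 20.7% and 26.4% in Experiment 2. For Oasl2 these shares were 55.6%, 68.8% and 81.3% against 7.12%, 7.20% and 7.95%, and for Isg15 37.4%, 31.6% and 26.1% against 3.89%, 4.52% and 6.32%. The libraries of Experiment 1 held fewer cells and fewer UMIs of these genes, which alone can raise the share of 5 cells. The shares are therefore not like for like. Oas1a stood at 4.39, but 51.2% of its 3' windows also occur in Oas1g and related genes, which makes its counts less certain. Isg15 was seen in 6.76%, 6.63% and 6.08% (17.4%, 16.6% and 19.5% unthinned) of thinned cells of Experiment 1 and in 42.7%, 39.00% and 28.6% (65.4%, 45.97% and 63.2% unthinned) of Experiment 2. The summed level of the list was 695, 554 and 506 CPM in Experiment 1 and 909, 854 and 669 CPM in Experiment 2, higher in Experiment 2 at each time. Thinned cells held a mean of 8.47, 6.55 and 5.93 against 6.65, 7.21 and 7.003 UMIs of the list, fewer in Experiment 2 at 0 h and more at the later times. B2m, an abundant member, had 508, 396 and 325 against 328, 342 and 283 CPM. These libraries hold no cell type that should lack these genes, so the share of cells that free RNA would give was not measured. Stat2 (0.49) and Irf9 (0.32), factors that carry the signal, were not called.

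Promoters of these 2 lists were read from RefSeq (GRCm38.p6), 250 bases before each start, to show the sequence next to their genes, whether called or not. The interferon-stimulated response element was searched as TTTCNNTTTC on both strands, with overlapping matches counted. It was found in 12 of 22 matched promoters of the 29 interferon genes, against 3.46% of 27025 promoters with a name. It was present in 11 of the 20 that were tested and in 8 of the 13 called higher. B2m and Stat2, which were not called higher, also have it. The sterol regulatory element was searched as TCACNCCAC and was found in 1 of 16 matched promoters of the 24 cholesterol genes, that of Hmgcs1, against 1.22% of all promoters. A match is a description of these letters only. The promoters of Isg15 (chr4:156200819-156201068, strand minus), Ifit1 (chr19:34640639-34640888, strand plus) and Hmgcs1 (chr13:119690101-119690350, strand plus) follow, 5' to 3' toward the gene's start, with matches in capitals.
Isg15: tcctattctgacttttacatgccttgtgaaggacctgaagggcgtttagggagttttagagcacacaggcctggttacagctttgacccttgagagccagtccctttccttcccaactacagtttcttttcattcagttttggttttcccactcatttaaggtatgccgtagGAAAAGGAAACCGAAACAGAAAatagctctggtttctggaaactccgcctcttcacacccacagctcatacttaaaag
Ifit1: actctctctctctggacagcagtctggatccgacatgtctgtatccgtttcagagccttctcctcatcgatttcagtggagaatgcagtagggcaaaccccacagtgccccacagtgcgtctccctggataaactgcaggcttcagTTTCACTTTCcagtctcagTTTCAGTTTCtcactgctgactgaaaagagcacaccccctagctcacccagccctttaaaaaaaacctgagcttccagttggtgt
Hmgcs1: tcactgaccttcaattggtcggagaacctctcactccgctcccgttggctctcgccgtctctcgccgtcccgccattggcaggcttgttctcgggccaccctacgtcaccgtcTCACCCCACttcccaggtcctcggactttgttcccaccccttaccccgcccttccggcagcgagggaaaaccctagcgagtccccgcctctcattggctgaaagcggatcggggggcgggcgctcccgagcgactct
Isg15 has 3 matches, which lie on the strand opposite the gene, Ifit1 has 2 on its own strand, and Hmgcs1 has 1. Of the other promoters looked at singly, that of Ifit3 holds 2 matches, and those of Oasl2 and Insig1 hold none in this window. Hmgcs1, which makes the precursor of mevalonate, had 82.4, 84.6 and 56.1 CPM in Experiment 1 and 185, 182 and 150 CPM in Experiment 2 (1.23, SE 0.21, adjusted p = 3.01e-04).

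Genes of mitosis were lower in Experiment 2. Of 34 tested, 0 were called higher and 22 lower, against 20.2% of all genes called lower, and the median was -0.698 (-1.16 on library totals). With TMM factors the medians by time were -0.39, -0.77 and -1.13. They were not taken on library totals, so a gap that widens with time is not shown apart from the scaling. The mitotic kinase Nek2 had 5.05, 5.803 and 7.47 CPM in Experiment 1 and 2.05, 1.74 and 1.32 CPM in Experiment 2 (-1.85, SE 0.25, adjusted p = 3.34e-05), and cyclin A2, Ccna2, 15.2, 14.9 and 19.8 against 7.41, 6.48 and 5.199 CPM (-1.39, SE 0.21, adjusted p = 7.37e-05). Ckap2, which stabilises spindle microtubules, had 20.7, 31.3 and 35.8 against 12.4, 8.18 and 7.703 CPM (-1.64), and the kinetochore motor Cenpe 26.98, 35.6 and 38.1 against 13.6, 13.7 and 16.7 CPM (-1.18). In these 4 genes every library of Experiment 2 was below every library of Experiment 1, but they were picked by p. Of all genes 53.6% did not overlap. Genes of DNA replication were mixed, with 2 of 32 higher and 7 lower (28.1% called, beside 40.6% of all genes). Their median was -0.18 (-0.64 on library totals, where 1 was higher and 14 lower). The licensing factor Cdt1 was lower (29.5, 22.4 and 29.5 against 6.27, 4.98 and 6.75 CPM, -2.18), as was Rrm2, the small subunit of ribonucleotide reductase (-1.21). Pcna, the sliding clamp, was higher (2.37), with 19.6% of its windows shared with a pseudogene listed only in Experiment 1.

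In cells thinned to 10000 UMIs, a smaller share of Experiment 2 had UMIs of these genes. A cell was counted when at least 3 members of the list had a UMI after thinning to 10000, and intervals are exact 95% binomial intervals that cover counting error only. The share was 35.4% (32.3% to 38.6%), 29.5% (25.7% to 33.5%) and 36.1% (32.1% to 40.3%) in Experiment 1 and 13.6% (12.3% to 14.9%), 17.3% (15.8% to 18.8%) and 12.02% (10.6% to 13.5%) in Experiment 2. Among the counted cells the mean was 18.7, 23.2 and 24.5 UMIs of the list in Experiment 1 and 19.9, 17.4 and 20.6 in Experiment 2. For DNA replication the shares were 60.5% (57.3% to 63.7%), 50.1% (45.8% to 54.4%) and 56.7% (52.5% to 60.9%) against 24.5% (22.9% to 26.2%), 31.03% (29.3% to 32.8%) and 33.1% (31.1% to 35.2%). Without thinning the shares were 78.03%, 79.3% and 83.9% against 33.5%, 34.1% and 63.7% for mitosis and 95.7%, 91.9% and 92.8% against 69.6%, 45.4% and 91.8% for DNA replication, at the unequal depths of the libraries. Thinning works on library totals, so the larger ribosomal share of Experiment 2 leaves fewer UMIs for these genes. With TMM factors the DNA replication list summed to 405, 386 and 396 CPM in Experiment 1 and 389, 334 and 296 CPM in Experiment 2. Its median differences by time were 0.02, 0.07 and -0.46, so at 0 h the shares differed where this level hardly did. Over the 3 pairs the mean difference in share was -19.4 percentage points for mitosis and -26.2 for DNA replication, each with an exact two-sided sign-flip p of 0.25, the smallest that 3 pairs allow. Cells under 10000 UMIs, 1.71% to 10.8% of kept cells in 5 libraries and 59.97% in Experiment 2 at 19 h, were left out.

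**Figure D3:**
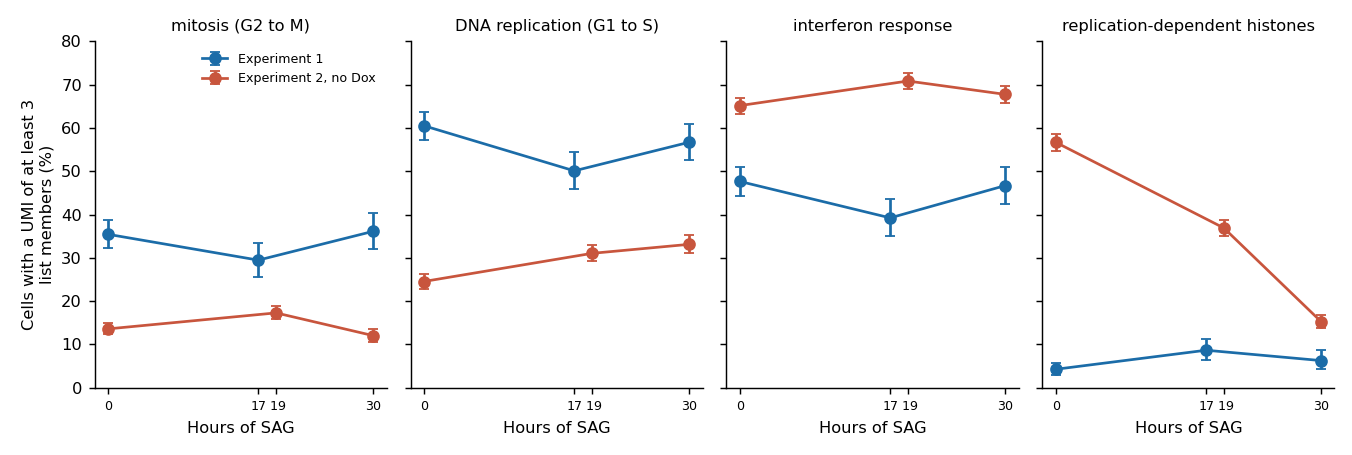
Share of cells with a UMI of at least 3 members of each of 4 lists (y, %) against hours of SAG (x), in cells thinned to 10000 UMIs; bars are exact 95% binomial intervals for counting error. Experiment 1 lies above Experiment 2 at every time for mitosis and DNA replication and below it for interferon and histone genes, and the histone share of Experiment 2 goes from 56.7% at 0 h to 15.2% at 30 h.

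Replication-dependent histone genes went the other way from the mitosis genes, with the largest median over the 3 times of any list. Of 34 tested, 30 were called higher in Experiment 2 and 0 lower (88.2% called, beside 40.6% of all genes). Their median was 2.68 (2.17 on library totals). Leaving out each library in turn gave 23.0 to 31.0 higher and none lower. The 11 tested members with no shared 3' window had a lower median, 1.45, with 8 called higher. The difference was largest at 0 h and smallest at 30 h, with medians of 4.25, 2.36 and 0.81. Hist1h2bc had 7.69, 7.78 and 6.17 CPM in Experiment 1 and 47.2, 38.1 and 19.02 CPM in Experiment 2 (2.19, SE 0.21, adjusted p = 9.31e-07), and no window of its 3' end is shared. Hist1h3f had 0.168, 0.405 and 0.334 against 27.9, 10.97 and 2.04 CPM (5.26, SE 0.52, adjusted p = 1.17e-06), with 73.9% of its windows shared with its near-identical copies, between which the counting could split reads. The summed level of the 38 listed genes was 78.9, 116 and 103 CPM in Experiment 1 and 1575, 678 and 290 CPM in Experiment 2. The summed level dropped with time in Experiment 2 and did not in Experiment 1. Cells with at least 3 members made up 4.25% (3.04% to 5.77%), 8.66% (6.43% to 11.3%) and 6.26% (4.400% to 8.601%) against 56.7% (54.8% to 58.6%), 36.9% (35.04% to 38.8%) and 15.2% (13.7% to 16.9%), or 23.7%, 39.9% and 43.4% against 90.1%, 61.3% and 70.7% without thinning.

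Most histone transcripts of this class end in a stem-loop in place of a poly(A) tail, which bears on how a kit primed on poly(A) captures them. The stem-loop was searched anywhere in vM21 transcripts, with a fixed loop and nearly fixed stems, so other variants could not be found. It was found for 20 of the 38 genes. The match lay 3 bases before the transcript's end in Hist1h2ap and 46 in Hist1h4h, but 4884 in Hist1h1d, so not every match marks an end. The 2 forms that the search returned are shown as an H2A and an H4 gene carry them, with the 6-base stems in capitals.
Hist1h2ap: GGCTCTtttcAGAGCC
Hist1h4h: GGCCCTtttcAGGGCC
Hist1h2ap had 7.38, 13.6 and 13.5 CPM in Experiment 1 and 572, 146 and 130 CPM in Experiment 2 (4.25, SE 0.47, adjusted p = 3.57e-06). Hist1h4h had 0.786, 2.47 and 1.41 against 69.4, 19.8 and 3.48 CPM (3.59, SE 0.61, adjusted p = 2.52e-04). Whether RNA without a tail was captured to a different extent in the libraries was not tested.

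The ribosomal protein and respiratory chain lists held more genes called higher than lower. Of 42 ribosomal protein genes 16 were called higher and 0 lower. This is 38.1% called, beside 40.6% of all genes, of which 20.4% were called higher. The list's median was 0.85 (0.39 on library totals), with medians by time of 1.47, 0.74 and 0.36. Without the 17 h library of Experiment 1 or the 19 h library of Experiment 2 4 were called, without a 0 h library 7 or 8, and without a 30 h library 30, all higher. Rpl41 had 1936, 3059 and 2925 CPM in Experiment 1 and 10179, 7789 and 7174 CPM in Experiment 2 (1.68, SE 0.37, adjusted p = 0.00195), and Rpl38 1518, 2786 and 1960 against 11939, 4959 and 5556 CPM (1.76, SE 0.42, adjusted p = 0.00345). Of 35 nuclear genes of the respiratory chain 25 were higher and 1 lower (74.3% called), with a median of 1.02 (0.56 on library totals). Uqcr11, a subunit of complex III, had 99.7, 166 and 128 against 576, 396 and 376 CPM (1.78, SE 0.28, adjusted p = 1.17e-04), and Ndufa13, of complex I, 177, 214 and 211 against 834, 651 and 497 CPM (1.69, SE 0.27, adjusted p = 1.49e-04). Of the 13 mitochondrially encoded genes, whose summed share was limited by the cell filter, 7 were higher and 0 lower (53.8% called). The median of these genes was 0.95 (0.496 on library totals, where 6 were higher and 3 lower) and 1.91, 0.69 and 0.19 by time. Their summed level was 57621, 65151 and 62291 CPM in Experiment 1 and 104931, 79230 and 49990 CPM in Experiment 2, lower in Experiment 2 at 30 h. Without either 0 h library 3 were higher and 2 lower. mt-Nd2 had 1083, 1425 and 1466 against 8580, 5250 and 3326 CPM (2.01, SE 0.39, adjusted p = 6.91e-04), in the order of times. Gm42418, a noncoding locus that overlaps ribosomal RNA sequence, had 706, 1257 and 1118 against 16317, 15062 and 3583 CPM (3.29, SE 0.51, adjusted p = 1.16e-04). In each of the genes named here Experiment 2 was highest at 0 h. Of 20 nuclear noncoding and snoRNA host RNAs 6 were higher and 7 lower (65.0% called). Their summed level was 32961, 42564 and 38147 CPM in Experiment 1 and 61061, 47334 and 21253 CPM in Experiment 2.

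Transcript length went with the difference. In the shortest of 5 equal groups of genes by vM21 transcript length (168 to 1820 bases) the median difference was 0.43, with 39.4% called higher and 9.41% lower. In the longest (5152 bases or more) it was -0.13, with 12.3% higher and 23.5% lower. By time the shortest group stood at 0.56, 0.56 and 0.18 at 0, 17 to 19 and 30 h. The part of length in the lists above was not tested.

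Metabolic and structural groups differed in both directions. Of 28 genes of glycolysis and hypoxia 15 were higher and 4 lower (67.9% called, beside 40.6% of all genes). Their median was 0.66 (0.197 on library totals, where 5 were called in each direction). The count higher was 6 without the 17 h library of Experiment 1 and 8 without the 19 h library of Experiment 2. Adm, the vasodilator peptide adrenomedullin, had 3.23, 2.88 and 2.897 CPM in Experiment 1 and 23.9, 36.3 and 25.6 CPM in Experiment 2 (3.22, SE 0.21, adjusted p = 1.04e-08), and Higd1a, a hypoxia-induced mitochondrial protein, 54.9, 67.4 and 65.7 against 250, 171 and 134 CPM (1.52). Bhlhe40, a transcriptional repressor also induced by hypoxia, was lower (-1.28). Of 27 lysosome and autophagy genes 0 were higher and 12 lower (44.4% called), with a median of -0.42 (-0.88 on library totals). Lgmn, the protease legumain, had 107, 79.8 and 70.2 against 21.4, 21.7 and 22.3 CPM (-1.95, SE 0.203, adjusted p = 2.02e-06), and Gla, alpha-galactosidase, 40.9, 37.7 and 45.1 against 12.02, 15.1 and 13.9 CPM (-1.59, SE 0.18, adjusted p = 5.54e-06). Cd68, a lysosomal membrane protein that is also used as a macrophage marker, stood at -2.52. Npc1, which exports cholesterol from lysosomes, was lower too (-1.28), while the cholesterol synthesis genes were higher.

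Of 25 contractile genes 13 were called higher and 2 lower, with a median of 0.61 (0.15 on library totals, where 6 were higher and 4 lower). Without the 17 h or the 19 h library 6 were higher and 1 lower. Thinned cells held a mean of 68.8, 56.1 and 63.7 UMIs of the list in Experiment 1 and 46.7, 65.6 and 87.02 in Experiment 2, fewer in Experiment 2 at 0 h and more at the later times. The 7 smooth muscle markers, some of them in this list, summed to 165, 122 and 151 CPM in Experiment 1 and 477, 429 and 356 CPM in Experiment 2. Acta2, smooth muscle actin, had 98.6, 67.9 and 80.1 CPM in Experiment 1 and 277, 257 and 259 CPM in Experiment 2 (1.703, SE 0.23, adjusted p = 2.56e-05). Myl9, a myosin light chain, had 1.09, 0.5398 and 0.929 against 5.09, 6.09 and 6.92 CPM (2.795, SE 0.28, adjusted p = 1.11e-06). Srf, the factor that many of these genes answer to, was lower (18.9, 15.5 and 13.00 against 3.97, 3.58 and 4.25 CPM, -1.99, SE 0.200, adjusted p = 1.34e-06). YAP targets were divided, with 6 of 23 higher and 7 lower (56.5% called), or 2 and 8 on library totals. Ankrd1 (21.8, 19.2 and 15.5 against 300, 105 and 115 CPM, 3.04) and Amotl2 (1.96) were higher, and the coagulation factor receptor F3 (402, 385 and 295 against 113, 100 and 55.7 CPM, -2.06) and Gadd45a (-1.97) were lower.

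Matrix genes were divided too. Of 30 glycoproteins and proteoglycans 11 were higher and 7 lower (7 and 10 on library totals). Beside Ogn and Tgfbi, the anti-angiogenic Thbs2 (114, 61.00 and 89.6 against 22.9, 20.7 and 20.5 CPM, -2.001) and tenascin C, Tnc (-1.59), were lower. Of 27 matrix enzymes 7 were higher and 7 lower (51.9% called), or 4 and 8 on library totals. Adamts1 and Adamts5, neighbouring proteoglycanase genes on chromosome 16 (85793827 and 85856173 are their starts), had 17.7, 16.1 and 10.96 against 143, 140 and 152 CPM (3.304, SE 0.23, adjusted p = 2.27e-08) and 33.4, 44.9 and 26.4 against 182, 150 and 168 CPM (2.29, SE 0.24, adjusted p = 1.90e-06). The receptor Tgfbr2 was higher (10.9, 10.9 and 8.395 against 40.4, 44.9 and 39.3 CPM, 2.05). Its TGF-beta list had 4 of 22 genes called in each direction (1 higher and 7 lower on library totals). At 36.4% called, that list was below the 40.6% of all genes. The experiments did not overlap in Thbs2, Tnc, Adamts1, Adamts5 or Tgfbr2, which were picked by p, nor in 53.6% of all genes.

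Lineage and growth factor genes showed further steps. Of 8 tested osteo-chondrogenic genes 0 were higher and 6 lower (75.0% called, beside 40.6% of all genes). Their median was -0.72 (-1.18 on library totals), and 2 were lower without the 17 h or the 19 h library. Runx2, the master factor of bone, had 55.2, 57.7 and 51.8 against 17.3, 16.8 and 20.8 CPM (-1.59, SE 0.19, adjusted p = 7.18e-06), and 5 of the 22 listed genes had no UMI in any library. Of 14 tested adipogenic genes 4 were higher and 6 lower (71.4% called), with a median of -0.22. The summed level of the listed genes was 1327, 1279 and 1132 CPM in Experiment 1 and 1491, 1367 and 1411 CPM in Experiment 2, higher in Experiment 2 at each time. Fabp4, a fatty acid carrier of adipocytes, had 5.11, 2.74 and 3.83 against 0.513, 0.283 and 0.211 CPM (-3.58, SE 0.31, adjusted p = 2.11e-07). Hgf (52.9, 33.2 and 36.5 against 13.9, 11.3 and 9.75 CPM, -1.796) and Gdnf (-1.898), both growth factors, were lower. Apcdd1, a Wnt inhibitor, had 4, 0 and 2 UMIs in Experiment 1 and 523, 505 and 834 in Experiment 2 (6.73). Igf2 had 0 UMIs in all 3 libraries of Experiment 1, where 3 UMIs would be 0.0842 to 0.135 CPM, and 4.42, 5.76 and 3.66 CPM in Experiment 2. Of its 3' windows 64.3% were shared with a feature listed only in Experiment 1. The stress factor genes Ddit3 (735, 841 and 955 against 240, 227 and 158 CPM, -2.03) and Cebpb (-1.76) were lower, and so was the chaperone Hspa5 (1529, 1546 and 1899 against 648, 580 and 575 CPM, -1.46). Of 25 genes of the unfolded protein response 3 were higher and 9 lower (48.0% called), and 3 were lower without the 17 h or the 19 h library.

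**Figure D4:**
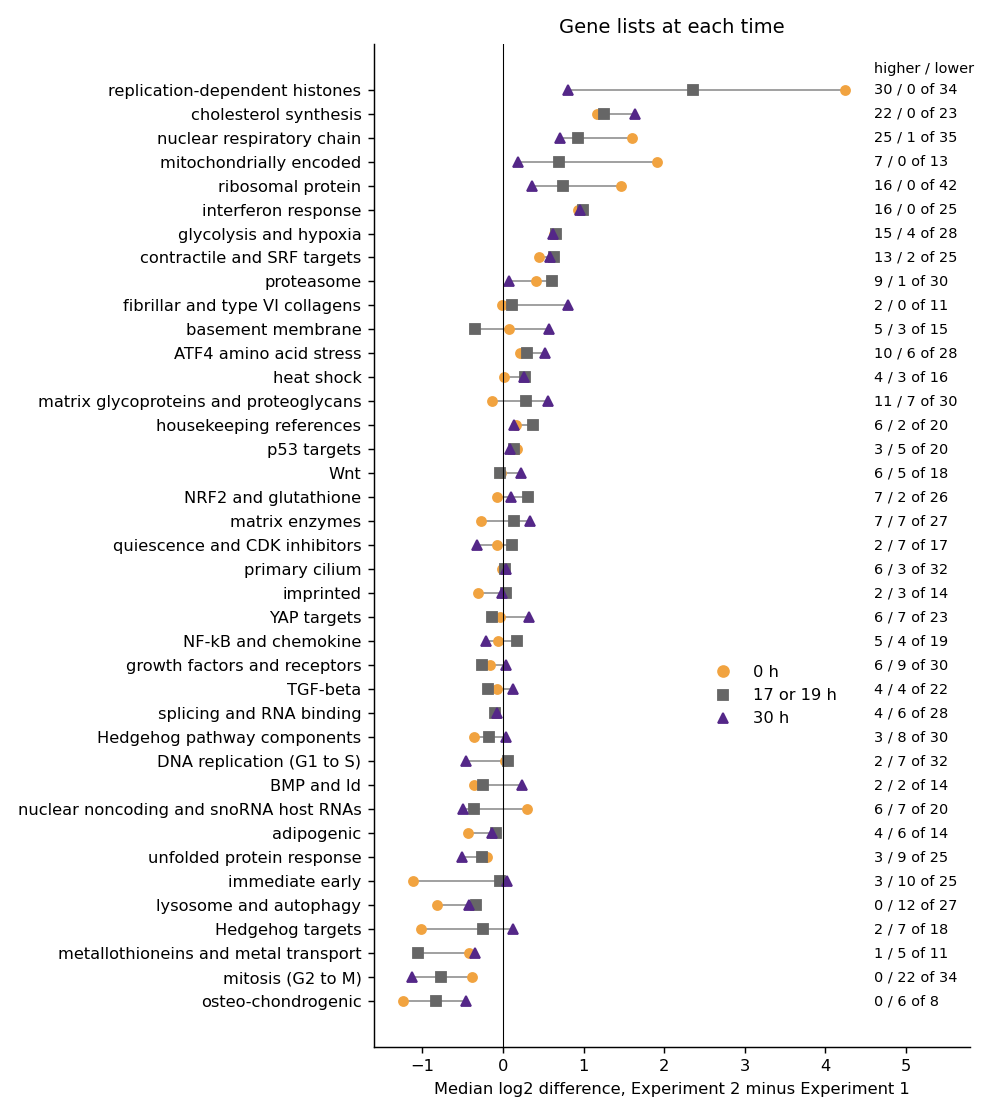
Median log2 difference of Experiment 2 minus Experiment 1 (x) over the tested genes of each list (y) at 0 h, 17 or 19 h and 30 h; the numbers at the right count the genes called higher and lower and the genes tested. The histone genes lie farthest to the right at 0 h (4.25) and at 17 or 19 h (2.36), but at 30 h (0.81) lie left of the cholesterol synthesis genes (1.64), the mitosis list lies left of 0 at all 3 times, and the immediate early list is near 0 except at 0 h.

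By chromosome, the medians of the differences lay between -0.13 and 0.11 for 16 of the 20 nuclear chromosomes measured here. Chromosome 3 stood lowest at -0.30 over 612 genes, with 36.4% called lower and 14.1% higher, and with -0.27, -0.34 and -0.30 at the 3 times. It was low along its whole length: in 4 equal groups of its genes by position the medians were -0.29, -0.23, -0.37 and -0.31. Chromosome 12 stood at -0.23 over 428 genes. Chromosomes 17 and 18 stood highest, at 0.19 over 641 genes and 0.17 over 333 genes. In genes with a mean of at least 10 CPM in an experiment the median of chromosome 3 was -0.36. The number of copies of these chromosomes was not measured.

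Within this gap between the experiments, the response to SAG differed in few genes. The test of the difference itself (an interaction of experiment with SAG, 17 to 30 h against 0 h, 2 residual degrees of freedom) called 65 of 12657 genes, which is 0.514%, with 14 higher and 51 lower in Experiment 2. On library totals it called 33, 18 higher and 15 lower, so the excess of lower responses was not kept. Each experiment has 1 library at 0 h, and the test takes its 17 or 19 h and 30 h libraries as replicates of each other, so a single 0 h library can set a call. At an unadjusted p under 0.05 it gave 1272, and DESeq2 called 108. Single libraries moved this count: without the 19 h library of Experiment 2 it was 2866, and without the 30 h library of Experiment 2, 448. The SAG response of Gli1 differed by 3.01, SE 1.23, adjusted p = 0.387. For Ptch1 it was 1.96, SE 0.53, adjusted p = 0.114, and for GFP_g1 0.79, SE 0.68, adjusted p = 0.727. None of them was called. Gli1 reached 7.65 CPM at 17 h and 7.88 CPM at 19 h. At 30 h it was 3.83 CPM in Experiment 1 and 16.0 CPM in Experiment 2. Gli1 was seen in 0.109%, 8.84% and 4.29% (0.7503%, 22.2% and 13.8% unthinned) of thinned cells of Experiment 1 and in 0%, 7.43% and 15.6% (0.101%, 9.31% and 47.2% unthinned) of Experiment 2, and Ptch1 in 5.89%, 20.3% and 12.2% (15.6%, 42.6% and 31.8% unthinned) against 2.41%, 19.9% and 37.1% (6.48%, 25.6% and 68.4% unthinned).

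Immediate early genes, which rise within minutes of serum or handling, made up 7 of the 14 genes with a higher response in Experiment 2. Of 25 tested, 7 were called higher and 0 lower. Fos, a subunit of AP-1, had 33.7, 2.52 and 4.05 CPM in Experiment 1 and 8.78, 6.86 and 8.34 CPM in Experiment 2 at 0, 17 or 19 and 30 h. It was high at 0 h in Experiment 1 and low in the other 5 libraries, and its response differed by 3.14, SE 0.41, adjusted p = 4.51e-04. Ier2 had 215, 44.04 and 45.4 against 56.3, 69.99 and 63.6 CPM (2.51, SE 0.38, adjusted p = 0.00177), and Fosb 14.5, 1.62 and 2.41 against 10.1, 7.88 and 7.73 CPM (2.46, SE 0.405, adjusted p = 0.003599). In both, the library of Experiment 1 at 0 h was again the highest. Dusp1, a phosphatase of MAP kinases, had 17.3, 6.34 and 5.65 against 26.2, 45.2 and 51.1 CPM (2.41, SE 0.36, adjusted p = 0.00177), falling in Experiment 1 and rising in Experiment 2. Egr1 was seen in 72.96%, 32.2% and 32.6% (87.6%, 47.99% and 48.5% unthinned) of thinned cells of Experiment 1 and in 13.7%, 17.4% and 20.1% (21.2%, 20.7% and 34.4% unthinned) of Experiment 2, and its response differed by 2.22, SE 0.39, adjusted p = 0.00609. Across the 3 times, 3 genes of the list were higher in Experiment 2 and 10 lower (52.0% called, beside 40.6% of all genes). Without either 0 h library these counts were 7 and 7. The lower ones included Nr4a2 (5.48, 4.36 and 4.27 against 0.645, 0.576 and 0.834 CPM, -2.77), Myc (62.8, 61.4 and 43.1 against 26.9, 17.1 and 15.5 CPM, -1.51) and Atf3 (2.22, 2.47 and 2.45 against 0.0331, 0.0452 and 0.0367 CPM, -5.88). Atf3 was seen in 2.73%, 2.03% and 1.79% (7.18%, 6.65% and 8.38% unthinned) of thinned cells of Experiment 1 and in 0%, 0% and 0% (0.0671%, 0.0613% and 0.185% unthinned) of Experiment 2. The counts of 0 allow a share of thinned cells with a UMI of up to 0.113%, 0.115% and 0.147%, which is no limit on cells expressing the gene. None of the 6 libraries was kept without SAG to the later times, so the response is that to SAG together with time in culture.

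The matrix proteoglycan genes Dcn and Lum also responded differently, Dcn by 1.97, SE 0.44, adjusted p = 0.0357 and Lum, the gene of lumican, by 2.06, SE 0.39, adjusted p = 0.0107. Decorin, Dcn, had 183, 148 and 128 CPM in Experiment 1 and 32.5, 70.9 and 121 CPM in Experiment 2, apart at 0 h and close at 30 h. Gipc2, a PDZ-domain adaptor, had 3.201, 22.6 and 10.2 against 0.149, 5.44 and 7.03 CPM (3.02, SE 0.67, adjusted p = 0.0357). The chemokine Cxcl1, which attracts neutrophils, had 11.9, 0.855 and 1.56 against 3.903, 2.803 and 1.48 CPM (2.401, SE 0.53, adjusted p = 0.0329), and at 0 h of Experiment 1 the 5 cells with most of it held 45.4% of its UMIs.

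The 6 genes with the lowest response in Experiment 2 relative to Experiment 1 were each highest in 1 library, that of Experiment 2 at 0 h. They were picked as the lowest responses among called genes with at least 10 CPM in a library, which favours such a peak. mt-Atp8, a subunit of the mitochondrial ATP synthase, had 29.3, 66.1 and 40.2 CPM in Experiment 1 and 751, 140 and 55.1 CPM in Experiment 2 (-3.803, SE 0.58, adjusted p = 0.00177). Pbld1 had 0.1404, 0.405 and 0.297 against 78.3, 13.2 and 8.59 CPM (-4.14, SE 0.75, adjusted p = 0.00709), Olfr889, an olfactory receptor gene, 0.112, 0.2699 and 0.2600 against 11.3, 1.67 and 1.16 CPM (-4.21, SE 0.82, adjusted p = 0.0124), and the sialyltransferase gene St6galnac2 3.51, 6.34 and 3.49 against 10.1, 1.695 and 0.605 CPM (-3.62, SE 0.597, adjusted p = 0.003599). Pbld1 and Olfr889 share 3.37% and 6.46% of their 3' windows with a close relative. Hist1h4h is in the same group, at -3.86, SE 0.89, adjusted p = 0.0445. Saa3, an acute-phase protein, had 1.18, 0.5398 and 0.817 against 30.8, 0.362 and 0.211 CPM (-5.99, SE 0.56, adjusted p = 2.14e-06), but 1 of the 2979 kept cells of Experiment 2 at 0 h held 1354 of that library's 1865 UMIs of Saa3, and 5 cells held 97.4%. It was seen in 0.677%, 0.153% and 0.244% (1.75%, 0.445% and 0.973% unthinned) of thinned cells of Experiment 2 and 0.545%, 0.368% and 1.07% (2.79%, 1.93% and 3.59% unthinned) of Experiment 1.

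**Figure D5:**
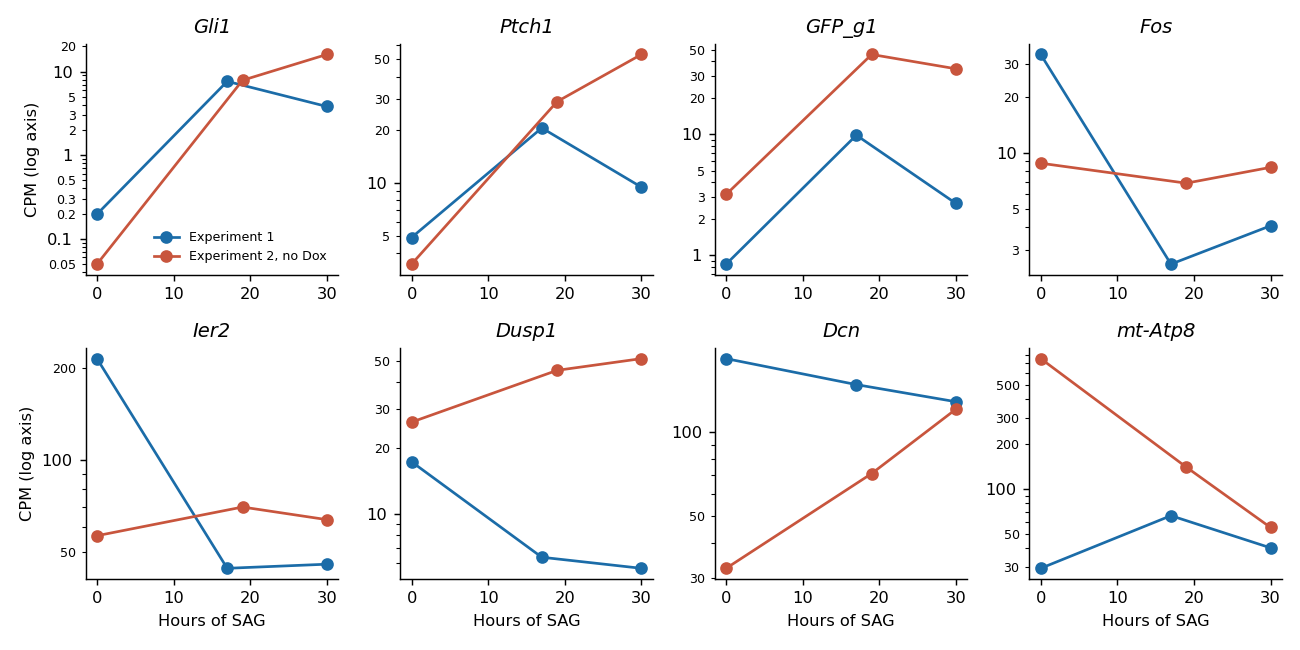
Level in CPM (y, log axis) of 8 genes against hours of SAG (x) in Experiment 1 and Experiment 2 without Dox, each point 1 library. Gli1 and Ptch1 cross between the experiments, GFP_g1 is higher in Experiment 2 at each time, Fos and Ier2 are highest at 0 h of Experiment 1, and mt-Atp8 is highest at 0 h of Experiment 2.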

How the data were processed

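The libraries were made with 10x 3' v3.1 chemistry, per the labels. The deposited matrices hold counts of UMIs per gene and barcode, written by Cell Ranger with software versions 3.1.0 for Experiment 1 and 6.0.1 for Experiment 2, per the file headers, on mm10, per the submitters' processing notes. The releases of the annotation are not given in the sources used here.

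Kept barcodes (at least 5000 UMIs, at most 10% mitochondrial) were summed per library over the 30407 shared gene ids, giving 19407468 to 29122942 UMIs in Experiment 1 and 84920077 to 105444824 in Experiment 2. No doublet caller was run. Genes were filtered with filterByExpr and tested with edgeR 4.0.16 (quasi-likelihood, TMM, prior count 2 for log2 CPM) in R 4.3.3, with Benjamini-Hochberg adjustment over all genes tested and calls at 0.05. The tests were tried on simulated data. The model had SAG time as a term, which pairs the libraries by time. Shares of cells were taken after each cell of 10000 UMIs or more was thinned at random to 10000.

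The comparison, the 39 gene lists and the 12 marker lists were chosen with earlier results of these data known. Named genes are the Hedgehog core genes, the 12 called genes with the largest difference in each direction (mean of at least 10 CPM, same sign at all 3 times), the 6 in each direction for the SAG response (at least 10 CPM in a library) and up to 4 per list by p. A few genes that this rule selects are not reported here. Srebf2, B2m, Stat2, Irf9, Hmgcs1, Hist1h2ap, Egr1 and the genes named for having no shared window were chosen after their values were seen. Positions and transcripts are from GENCODE vM21, matched by id for 30241 of the 30407. Promoter sequences are from RefSeq on GRCm38.p6. Alternatives covered the normalization, the filters on genes and cells, DESeq2 1.42.0 and each library left out. The alternative without ribosomal genes drops symbols beginning Rpl or Rps, which takes in the kinase gene Rps6ka4. The libraries with Dox entered only the alternative with all 9.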

Additional observations from a re-analysis of the deposited data

Results flagged for a closer look

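For 12 genes the difference between the experiments in the response to SAG passed the test of that difference itself (edgeR quasi-likelihood, Benjamini-Hochberg adjusted, 1 library at 0 h and 2 later in each experiment, the later 2 taken as replicates of each other, so that a single 0 h library can set a call). It was higher in Experiment 2 for Fos (3.14, SE 0.41, adjusted p = 4.51e-04), Gipc2 (3.02, SE 0.67, adjusted p = 0.0357), Ier2 (2.51, SE 0.38, adjusted p = 0.00177), Fosb (2.46, SE 0.405, adjusted p = 0.003599), Dusp1 (2.41, SE 0.36, adjusted p = 0.00177) and Cxcl1 (2.401, SE 0.53, adjusted p = 0.0329). It was lower for Saa3 (-5.99, SE 0.56, adjusted p = 2.14e-06), Olfr889 (-4.21, SE 0.82, adjusted p = 0.0124), Pbld1 (-4.14, SE 0.75, adjusted p = 0.00709), Hist1h4h (-3.86, SE 0.89, adjusted p = 0.0445), mt-Atp8 (-3.803, SE 0.58, adjusted p = 0.00177) and St6galnac2 (-3.62, SE 0.597, adjusted p = 0.003599). In these 6 genes the library of Experiment 2 at 0 h was the highest of the 6. Taking the lowest responses with at least 10 CPM in a library favours such genes. For Saa3 1 cell held 1354 of its 1865 UMIs in the library of Experiment 2 at 0 h.

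Features listed in 1 experiment's matrices only took no part in the comparison and still held UMIs. In Experiment 1 the most abundant were Gm10073, with a mean of 106 CPM over its 3 libraries, Gm9493 with 95.2 CPM, and the ribosomal protein pseudogenes Rpl27-ps3 with 52.9 CPM and Rps12-ps3 with 48.9 CPM. In Experiment 2 they were the snoRNA host genes Gas5, with a mean of 2146 CPM, and Zfas1 with 476 CPM, and the noncoding 2410006H16Rik with 1782 CPM and 1110038B12Rik with 726 CPM. These CPM were scaled to a library's total of kept UMIs without TMM factors, unlike the other CPM in the text. No level in the other experiment can be set beside these, since the feature is not listed there.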

How the results depend on the processing

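The count of 5136 genes that differed between the experiments stayed within 1.5 times under the alternative normalizations, filters on genes and cells, DESeq2, thinning and the fit of all 9 libraries, at 4267 to 6575. Leaving out 1 library gave 2615 to 4955. It was 2756 without the 17 h and the 19 h library, and 959 when tested against a log2 difference of 1. With no replicate block, SAG time not being a term, it was 5256. The 12 highest and 12 lowest named genes kept their call in each setting in which they were tested. Of the Hedgehog genes, none of them called, Gli1 ranged from -0.19 to 1.36 with 1 library left out, Gli2 from -0.076 to 0.57 and Smo from -0.27 to 0.0054. Gli1 and Gli2 turned negative without either 30 h library, and Smo positive without the 0 h library of Experiment 2. On library totals Gli2 turned to -0.15, Gli3 to -0.086 and Sufu to -0.17. The cause was not tested. The 65 genes with a different SAG response became 215 with no filter on low counts, 108 with DESeq2, 114 in cells of at least 10000 UMIs, 39 with a mitochondrial limit of 20%, 14 in all deposited barcodes and 33 on library totals (18 higher and 15 lower, against 14 and 51), and 58 to 2866 with 1 library left out, in which the 0 h libraries cannot be left out. The normalizations, thinning and leaving out were planned except library totals, thinned libraries, genes with no shared windows, the pair left out and the list counts, which were chosen after seeing the data. With 1 library per experiment and time, and 2 residual degrees of freedom, the experiment cannot be told apart from its date, reagents or software, and the shallow cells at 19 h limit what shares of cells show there.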

Other observations

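Several further gene groups differed in both directions, given here as counts and values beside the 20.4% and 20.2% of all genes called higher and lower. Of 28 genes of the ATF4 response to amino acid shortage 10 were higher and 6 lower (4 and 8 on library totals). Psph, the last enzyme of serine synthesis, had 19.7, 21.4 and 18.5 CPM in Experiment 1 and 120, 99.5 and 58.6 CPM in Experiment 2 (2.16, SE 0.22, adjusted p = 1.52e-06), and the cystine importer Slc7a11 1.07, 0.945 and 0.297 against 3.79, 2.599 and 2.26 CPM (1.98). Both are in a list whose Ddit3 and Cebpb were lower. Of 26 genes of the NRF2 and glutathione group 7 were higher and 2 lower (4 and 6 on library totals). Sod1, superoxide dismutase, was higher (1.596) and Hmox1, which degrades heme, was lower (85.8, 60.3 and 65.6 against 26.6, 29.1 and 33.3 CPM, -1.24). Of 11 genes of metal transport 1 was higher, the transferrin receptor Tfrc (13.9, 19.3 and 13.97 against 43.7, 35.4 and 32.01 CPM, 1.24), and 5 were lower, among them the iron exporter Slc40a1 (-1.003) and the zinc exporter Slc30a1 (-1.100).

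Of 14 genes of the BMP group 2 were higher and 2 lower (28.6% called, beside 40.6% of all genes), with a median of -0.19. The 2 higher ones were Id3 (6.63, 4.004 and 4.68 against 24.8, 19.96 and 11.6 CPM, 1.84) and Id1 (1.39), targets of BMP receptors, and the inhibitory Smad6 (-1.11) was among the lower. In the Wnt group 6 of 18 were higher and 5 lower (3 and 7 on library totals), with the ligand Wnt5a higher (1.54, 1.98 and 1.41 against 5.904, 7.03 and 7.07 CPM, 2.02) and the receptor Fzd7 lower (-1.34). Of 17 quiescence genes 2 were higher and 7 lower: Btg1 (-1.65), Klf9 (-1.59), Gas6 (-1.53) and Pdgfra (-1.12) were among the lower. Of 15 basement membrane genes 5 were higher and 3 lower, but 1 higher and 5 lower without either 30 h library, 1 and 2 without the 19 h library, and 0 and 5 on library totals. Smoc1 stood at -2.77 and the laminin gene Lama4 at -2.07. The collagen gene Col11a1 was higher (0.505, 0.405 and 0.371 against 2.100, 3.300 and 4.69 CPM, 2.87). Among marker genes of other cell types, the neuronal Stmn2 was higher (0.646, 0.675 and 0.483 against 11.6, 8.87 and 5.02 CPM, 3.79) and Snap25 lower (-1.43).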
